A study of Mus musculus with 5 samples.

Results

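Neurofilaments are the intermediate filaments of axons, and 4 genes of this system were described here: Nefl, Nefm and Nefh, which encode the light, medium and heavy neurofilament subunits, and Ina, which encodes alpha-internexin. Their members were all probe sets that the array's annotation gives to 1 of these 4 symbols and to no other gene. Of 18193 genes with such a probe set these are 4, read by 7 of the 45101 probe sets, with 2 for Nefl, 1 for Nefm, 1 for Nefh and 3 for Ina. All 7 passed the filter on low signal described below. Nefh passed it through the bound arrays, since its input signal alone lay below the filter's level of 25.5. The study asked which mouse brain RNAs bind in vitro to MA-Brent-1, a protein of the REF/Aly family of mRNA export adaptors, in its deiminated form, in which arginines have been turned into citrulline, and in its non-deiminated form. There were 2 arrays of RNA eluted from the deiminated protein, 2 arrays of RNA eluted from the non-deiminated protein and 1 array of the initial brain RNA, which had gone through no binding and is called input. 1 array of each bound group names the protein REFP2 in its title. The strain, age and sex of the mice, the way the protein was made and the origin of the repeats are not stated in the labels, apart from 1 title that names a biological repeat, so the p-values here reflect only how far these arrays differ from each other, which may be technical.

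Neurofilament subunits share a central rod through which they coil around each other. Nefl forms the core on which the medium and heavy subunits assemble, and alpha-internexin is a further core subunit in neurons of the brain and spinal cord. Nefm and Nefh carry long tails with many lysine-serine-proline repeats, which are heavily phosphorylated in axons and set the spacing between filaments and with it axon calibre. Peripherin, encoded by Prph, is the related subunit of peripheral and some brainstem and spinal neurons. In the RefSeq gene table for GRCm38.p6, Nefl and Nefm are neighbouring protein-coding genes, whereas Nefh and Ina each lie between unrelated genes. The Entrez identifiers of all 4 genes matched that table.

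Each value is a MAS5 signal on a linear scale, which the authors had scaled so that the mean after trimming 2% at each end was 150 on every array. The median signal was 29.9 to 41.5 on the bound arrays and 102 on input. Added hybridisation controls, bacterial and phage transcripts of known amount, had a mean of 10.08 and 10.59 log2 on replicate 1 of the non-deiminated and deiminated groups. Replicate 2 of these groups had 13.04 and 12.60, and input had 17.04. The 3' to 5' signal ratio of the Gapdh control was 17.4 to 31.9 on the bound arrays and 2.71 on input. For beta-actin the ratio was 29.8 to 55.6 on the bound arrays and 234 on input. The part of these differences in the results below was not tested, and every comparison with input rests on that 1 array.

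Nefl, the core subunit, gave strong signals on both of its probe sets. Probe set 1426255_at read 4050 and 2821 with the deiminated protein, 3820 and 3865 with the non-deiminated protein and 984 on input. Probe set 1454672_at read 2621 and 2914 with the deiminated protein, 3481 and 2044 with the non-deiminated protein and 308 on input. For both, each of the 4 bound arrays lay above the input array, and the deiminated and non-deiminated arrays overlapped. The mean of the bound arrays was 3.7 times the input for 1426255_at and 8.97 times for 1454672_at. Differences were then fitted with limma on log2(signal + 4.18), and a probe set is called when its Benjamini-Hochberg adjusted p over all 27022 tested probe sets is under 0.05. On this scale 1426255_at rose in deiminated-bound RNA over input by 1.78 ± 0.43 (SE, n = 2 and 1; limma adjusted p = 0.00532). 1454672_at rose by 3.15 ± 0.43 (adjusted p = 0.000115). In non-deiminated-bound RNA the corresponding rises were 1.96 ± 0.43 (adjusted p = 0.00323) and 3.10 ± 0.43 (adjusted p = 0.000136). The calls of 1426255_at did not hold when the arrays were quantile normalised, at 0.58 for deiminated-bound RNA (adjusted p = 0.182) and 0.81 for non-deiminated-bound RNA (adjusted p = 0.0702). They did not hold under cyclic loess either, at 0.23 and 0.47, and without deiminated replicate 1 the first was 1.52 (adjusted p = 0.083).

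Nefm, the medium subunit whose gene neighbours Nefl, had a smaller difference. Its probe set 1422520_at read 900 and 1584 with the deiminated protein, 833 and 1069 with the non-deiminated protein and 398 on input. All 4 bound arrays lay above input, with a mean 2.75 times as high, and the highest bound signal was 1.9 times the lowest. The log2 rise was 1.57 ± 0.42 for deiminated-bound RNA (limma adjusted p = 0.00886) and 1.24 ± 0.42 for non-deiminated-bound RNA (limma adjusted p = 0.028). Both calls were lost with quantile normalisation, at 1.00 (adjusted p = 0.0549) and 0.69 (adjusted p = 0.166), and with a constant variance prior, at 1.57 (adjusted p = 0.0544) and 1.24 (adjusted p = 0.107). Under cyclic loess the values were 0.19 and -0.11. Without deiminated replicate 2, whose signal of 1584 was the highest, the first value was 1.17 (adjusted p = 0.0927).

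Nefh, the heavy subunit, showed the widest gap between bound and input RNA among the 7 probe sets. Probe set 1424847_at read 1035 and 614 with the deiminated protein, 895 and 530 with the non-deiminated protein and 8.38 on input. No detection call was used, and the input reading lay below the filter's level of 25.5. On the log2 scale the rise was 6.0 ± 0.46 for deiminated-bound RNA (95% interval 5.0 to 6.99; limma adjusted p = 1.81e-06) and 5.79 ± 0.46 for non-deiminated-bound RNA (4.79 to 6.78; limma adjusted p = 2.29e-06). Among all tested probe sets the difference lay at the 99.8 percentile in both comparisons. The input signal was 2 times the pseudocount of 4.18, so the size depends on that constant and on a single low reading and is not a measured fold. The SE, interval and adjusted p take their spread from the bound arrays, so they do not measure the noise of that low reading. With pseudocounts of 1.05 and 16.7 the difference was 6.40 and 5.02 for deiminated-bound RNA and 6.19 and 4.81 for non-deiminated-bound RNA. Unlike Nefl and Ina, Nefh has 1 probe set, so no other probe set of the gene bears on that reading.

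**Figure D1:**
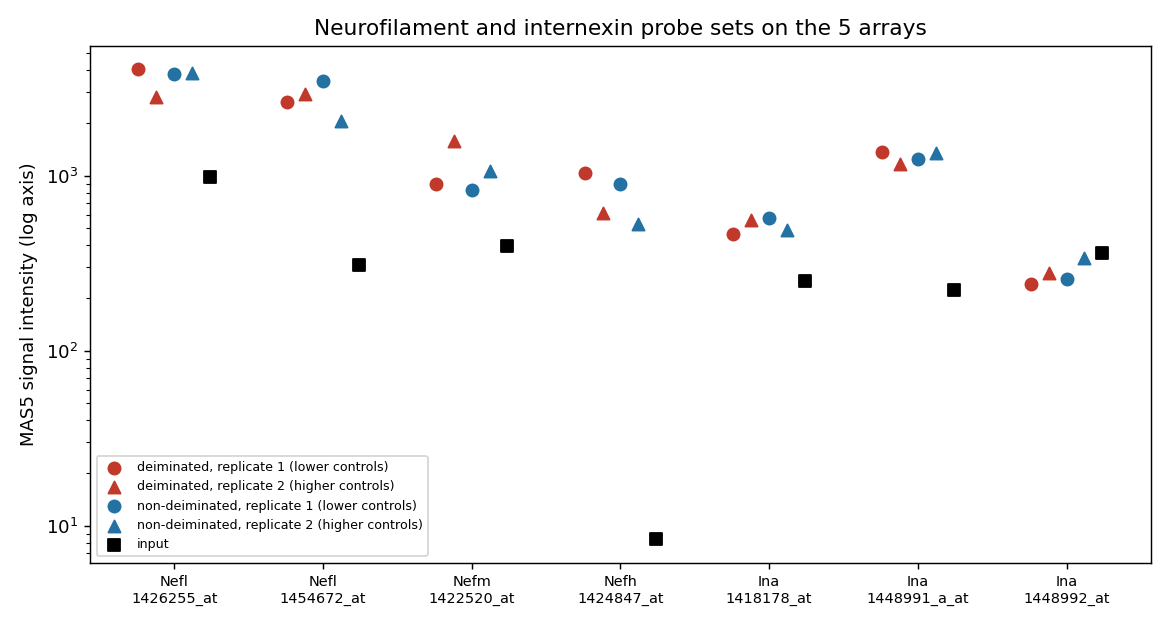
MAS5 signal intensity (log axis) of the 7 probe sets on the deiminated (red), non-deiminated (blue) and input (black square) arrays; circles are bound arrays with lower and triangles bound arrays with higher hybridisation controls. All 4 bound arrays lie above the input array for 6 probe sets, with Nefh at 8.38 on input, and below it for Ina 1448992_at.

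Ina, the alpha-internexin gene, was read by 3 probe sets that did not give the same picture. Probe set 1448991_a_at read 1375 and 1165 with the deiminated protein, 1251 and 1347 with the non-deiminated protein and 221 on input. Probe set 1418178_at read 462 and 558, then 571 and 489, and 250 on input. Probe set 1448992_at read 239 and 277, then 257 and 337, and 363 on input. The bound arrays were therefore all above input for the first 2 and all below input for 1448992_at. 1448991_a_at rose by 2.50 ± 0.37 for deiminated-bound RNA (limma adjusted p = 0.000214) and by 2.53 ± 0.37 for non-deiminated-bound RNA (limma adjusted p = 0.000199). 1418178_at rose by 1.01 ± 0.38 (limma adjusted p = 0.0398) and 1.07 ± 0.38 (limma adjusted p = 0.0328), close to the threshold, with -0.11 and -0.04 under cyclic loess. Those calls were also lost with a constant variance prior (adjusted p = 0.121 and 0.107), with a block for the protein name (adjusted p = 0.0868 and 0.0711) and, for deiminated-bound RNA, without deiminated replicate 1 (adjusted p = 0.103) or replicate 2 (adjusted p = 0.212). For non-deiminated-bound RNA, they were lost without deiminated replicate 1 (adjusted p = 0.0644) or replicate 2 (adjusted p = 0.0657). 1448992_at had -0.49 ± 0.40 (95% interval -1.36 to 0.38; limma adjusted p = 0.318) and -0.30 ± 0.40 (-1.17 to 0.57; limma adjusted p = 0.547). Its value for deiminated-bound RNA passed as lower under cyclic loess, at -1.29 (adjusted p = 0.0311). After median centring, which moves all probe sets of an array alike, both values were positive, 1.00 and 1.12, and did not pass, while their distances from the median of all probe sets stayed at -0.28 and -0.11.

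Within an array, the ratio of 2 probe sets of the same gene does not change when the whole array is multiplied by a constant, apart from the small pseudocount, although quantile normalisation and cyclic loess can change it. For Ina, log2 of 1448991_a_at over 1448992_at was 1.99 to 2.51 on the 4 bound arrays and -0.71 on input. For 1418178_at over 1448992_at the ratio was 0.53 to 1.14 on the bound arrays and -0.53 on input. For Nefl, 1426255_at over 1454672_at was -0.05 to 0.92 on the bound arrays and 1.66 on input. For Ina 1418178_at over 1448991_a_at it was -1.57 to -1.06 on the bound arrays and 0.18 on input. That last ratio is fixed by the other Ina ratios, so it is no separate observation. In each of these pairs the input array lay outside the range of the bound arrays, so the probe sets of 1 gene moved by unequal amounts between bound and input RNA. How often this holds for pairs of other genes was not computed. For single probe sets, input lay below all bound arrays in 39.1% of those tested and above them in 45.6%. Probe positions along the transcripts were not used here, and the part of the differing 3' to 5' control ratios in this was not tested.

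Across the 4 genes, limma called 6 of 7 probe sets higher and 0 lower in each comparison with input. Nefh, which passed the signal filter through the bound arrays, is among the 6. Over all 27022 tested probe sets, 24.9% were called higher and 26.6% lower for deiminated-bound RNA, and 24.7% and 25.7% for non-deiminated-bound RNA. The median log2 difference of the 7 probe sets was 1.78 and 1.96, against -0.21 and -0.19 over all tested probe sets. All 4 bound arrays exceeded input for 6 of the 7, and for 39.1% of tested probe sets, and all 4 lay below it for 1 of the 7, and for 45.6% of tested probe sets. In deiminated-bound RNA the difference lay at the 99.8 percentile of all tested probe sets for Nefh, 93.4 for Nefl 1454672_at, 88.4 for Ina 1448991_a_at, 80.1 for Nefl 1426255_at, 77.5 for Nefm, 69.4 for Ina 1418178_at and 45.5 for Ina 1448992_at. The comparisons with input share the same input array, so their likeness is no separate support.

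**Figure D2:**
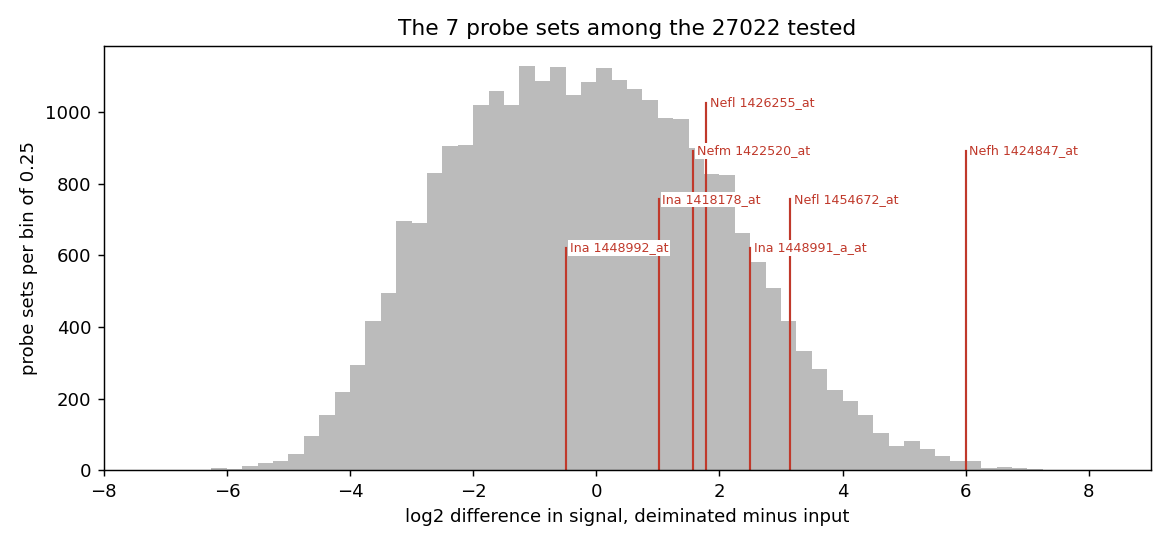
Distribution of the log2 difference, deiminated minus input, over the 27022 tested probe sets in bins of 0.25 (grey bars, number of probe sets), with the 7 neurofilament and internexin probe sets as red lines whose height has no meaning. Nefh lies in the far right tail at 6.0, and Nefm, at 1.57, lies within the bulk at the 77.5 percentile.

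Some of the settings run, such as median centring, move all probe sets alike and cannot change their order. Quantile normalisation, cyclic loess, dividing by the hybridisation controls, the pseudocounts and dropping a bound array can. Without deiminated replicate 1, Nefm lay at 2.13 from the median of all for deiminated-bound RNA, above Nefl 1426255_at at 1.67. In both comparisons with input, Nefh had the highest difference in all 17 settings, the primary one included. Nefl 1454672_at and Ina 1448991_a_at followed, and Ina 1448992_at was lowest. These settings reuse the same input array. Scaling moved the median of all tested probe sets for deiminated against input from -0.21 to 0.51 with quantile normalisation, 1.29 with median centring, -0.24 with cyclic loess and 4.31 with scaling to the hybridisation controls. The number of members called higher was 4, 6, 3 and 0 in these settings, against 36.8%, 44.8%, 22.7% and 0% of all tested probe sets. Of all calls for deiminated against input, 48.4% were higher in the primary analysis, 65.4% after quantile normalisation and 90.3% after median centring. For non-deiminated against input these shares were 49%, 65.4% and 90.5%. Measured from the median of all probe sets, Nefh kept 4.21 to 6.20 in deiminated-bound RNA over the 6 scalings and Nefl 1454672_at kept 1.91 to 3.94. Ina 1448991_a_at kept 1.35 to 3.18, whereas Nefl 1426255_at ranged from 0.06 to 2.79 and Ina 1418178_at from 0.13 to 1.74. With the signals divided by the hybridisation control level before the pseudocount was added, limma called 0 of all 27022 probe sets, with 6 of the 7 members and 7110 of all probe sets at an unadjusted p under 0.05. With the same level subtracted from the log2 values instead, limma called 4 members higher and none lower in each comparison with input, against 21.8% of all tested probe sets higher for deiminated and 22.4% for non-deiminated, and the medians of all were 5.24 and 5.28. Under it 100% of all calls were higher in both comparisons. The 4 called were Nefh, both Nefl probe sets and Ina 1448991_a_at, so the calls under this scaling depend on how it is applied. Division is the form meant by hybridisation control scaling in what follows, and it was adopted after the subtraction had been seen.

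**Figure D3:**
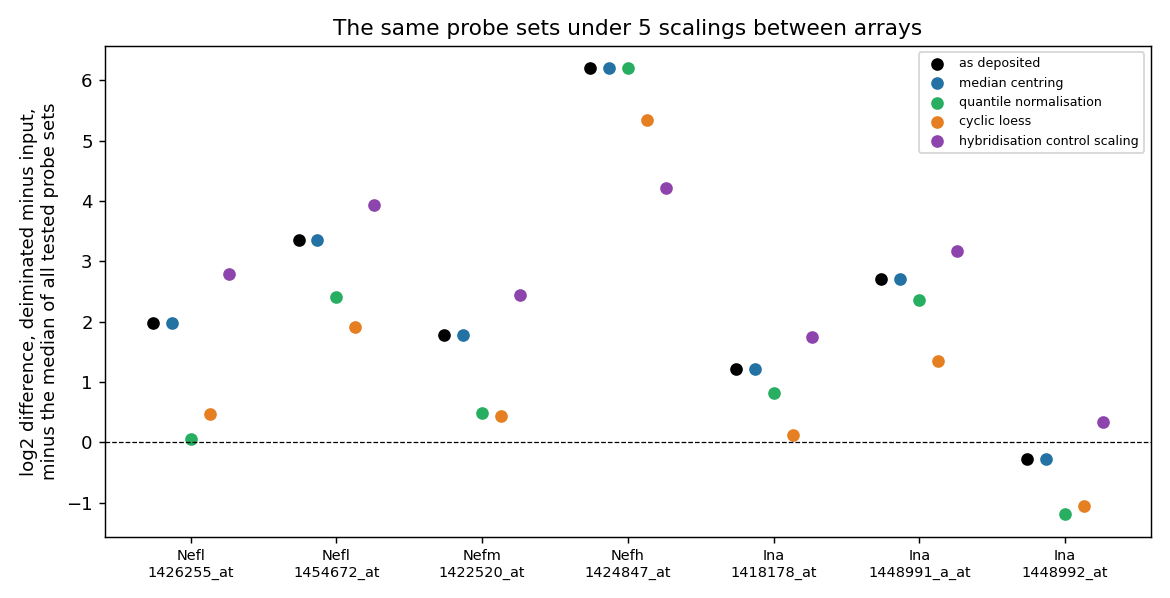
log2 difference, deiminated minus input, of the 7 probe sets under 5 scalings between arrays, each given as distance from the median of all tested probe sets under that scaling (dashed line at 0). Nefh is highest under every scaling shown, at 4.21 to 6.20, and Nefl 1426255_at comes down to 0.06 after quantile normalisation.

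Setting the deiminated against the non-deiminated protein asks whether citrulline in the protein changes which RNAs it holds. limma called 0 of the 7 probe sets, and 0 of 7 had an unadjusted p under 0.05. Over all tested probe sets it called 0%, with 356 at an unadjusted p under 0.05. The groups overlapped for each of the 7, whereas for 24.1% of tested probe sets they did not overlap. Nefm had the largest difference, 0.34 ± 0.34 (95% interval -0.41 to 1.08; n = 2 and 2; limma adjusted p = 1). Nefh had 0.21 ± 0.38 (-0.60 to 1.02), Nefl 1426255_at -0.18 ± 0.35 (-0.94 to 0.57) and Nefl 1454672_at 0.05 ± 0.35 (-0.70 to 0.81). The 3 Ina probe sets had -0.06 ± 0.31 (-0.72 to 0.61), -0.04 ± 0.30 (-0.69 to 0.61) and -0.19 ± 0.33 (-0.90 to 0.52), in the order 1418178_at, 1448991_a_at and 1448992_at. As ratios, the intervals reached down to 0.52 for Nefl 1426255_at and up to 2.12 for Nefm. They are not adjusted for the number of probe sets tested, so they give no limit of detection for the calls. The intervals do not show that both forms of the protein held these transcripts alike.

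**Figure D4:**
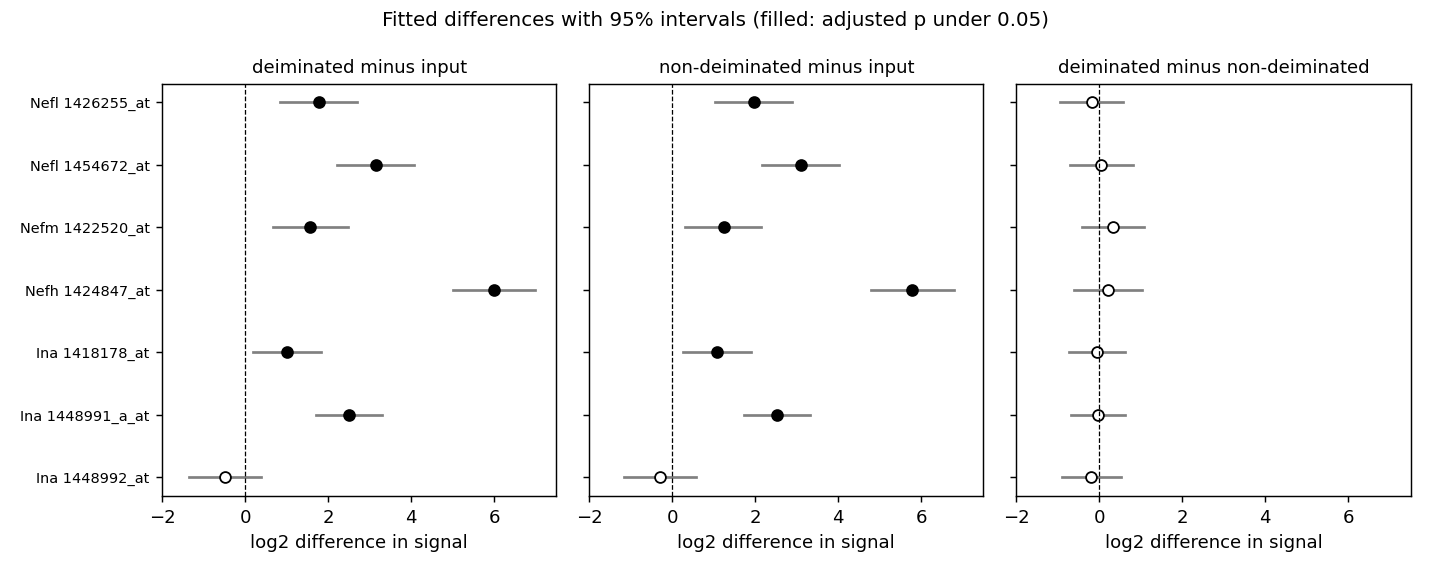
Fitted log2 differences (points) with 95% intervals from limma (lines) for the 7 probe sets in the comparisons deiminated minus input, non-deiminated minus input and deiminated minus non-deiminated; filled points have an adjusted p under 0.05. In the comparisons with input 6 of 7 points are filled, and between the bound groups none is, with values from -0.19 to 0.34.

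Arrays with lower and higher hybridisation controls stood apart for some members, across both forms of the protein. The share of members was no larger than that of all tested probe sets. For Nefh the arrays with lower controls read 1035 and 895 and those with higher controls 614 and 530, a log2 difference of 0.75 with no overlap. For Nefm the arrays with lower controls read 900 and 833 and those with higher controls 1584 and 1069, a difference of -0.59 in the opposite direction. Ina 1448992_at, with -0.30, also did not overlap, and the other 4 probe sets did. Over all tested probe sets, 48.9% did not overlap in this split. Within a level, where each group has 1 array and no test is possible, deiminated minus non-deiminated was 0.21 at both levels for Nefh. It was 0.11 at the lower and 0.57 at the higher level for Nefm. For Nefl 1454672_at it was -0.41 and 0.51, for Nefl 1426255_at 0.08 and -0.45, for Ina 1448991_a_at 0.14 and -0.21, and for Ina 1418178_at -0.30 and 0.19. The sign thus turned between the levels for these 4 probe sets.

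The genes with the most similar profiles were sought among 13051 other genes, each by its probe set of highest mean signal, as the root mean square difference of log2 profiles centred on their own mean over the 5 arrays. Nefl 1426255_at was nearest to Rev1 (0.05), a DNA polymerase that bypasses lesions, Rasgrp1 (0.06), an activator of Ras, and the linker histone gene H1f2 (0.07). Nefm was nearest to Surf6, the guidance ligand gene Sema3c and Pdcd11, each at 0.06. Ina 1448991_a_at was nearest to the ribosomal protein gene Rpl12 and the farnesyltransferase subunit gene Fnta, both at 0.04, and to Fkbp9 at 0.05. Nefh had fewer close neighbours, with Cd164 at 0.13, the integrin gene Itgb8 at 0.14 and Abhd3 at 0.17. Within 0.25 there were 16 genes for Nefh, 227 for Nefm, 533 for Nefl and 616 for Ina. Cd164, Itgb8 and Abhd3 read 5.74, 17.7 and 6.39 on the input array, where Nefh read 8.38, and 427 to 1649 on the bound arrays. With 5 arrays, of which 1 differs widely from the others, these distances describe the profiles only.

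Other parts of the filament system were read from lists of genes chosen for their roles, each gene by the probe set of highest mean signal. Among single genes, 29.5% of 13055 were called higher and 22.4% lower for deiminated against input, with a median log2 difference of 0.11, and 29.2% and 21.3% for non-deiminated against input, with a median of 0.12. Of the 9 other intermediate filament genes that passed the signal filter, 2 rose, 3 fell and 4 did not pass, with a median of -0.76. Prph, the peripherin gene, read 15.4 and 76.5 with the deiminated protein, 23 and 51.3 with the non-deiminated protein and 519 on input, which is the opposite order to the neurofilament genes. For Prph the readings of 15.4 and 23 lay below the filter's level of 25.5, so the size of its difference depends in part on the pseudocount. Its log2 difference for deiminated against input was -3.72 ± 0.84 (limma adjusted p = 0.00355), and it remained negative under quantile normalisation, median centring and cyclic loess but was 1.38 and not called under hybridisation control scaling. That scaling raised the median of all tested probe sets to 4.31, and Prph lay at -2.93 from that median. Nes, which encodes the progenitor filament nestin, fell by 3.26 (adjusted p = 0.00198) and had 1.88 under that same scaling, at -2.43 from the median of all. Vim, which encodes vimentin, rose by 2.46 (adjusted p = 0.000858), with a positive value under every scaling run. Among the lamins of the nuclear envelope, Lmnb2 rose by 1.98 (adjusted p = 0.0462). Lmnb2 read 70.7 and 33.9 with the deiminated protein, 86.8 and 68.2 with the non-deiminated protein and 9.37 on input. That input reading lay below the filter's level, so the size of the rise depends on the pseudocount and on a single low reading. Lmnb1 had -1.27 (adjusted p = 0.0415). Its value was 0.23 after median centring and 3.82 under hybridisation control scaling, at -1.06 and -0.49 from the medians of all. Gfap, the astrocyte filament, had -0.24 ± 0.37 and did not pass. It was called lower after quantile normalisation, at -1.39, and under cyclic loess, at -1.67, and had 1.25 without passing after median centring. The other kept probe sets of Prph, Vim and Nes shared the direction, in 4 of 4 cases.

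Of the linkers and transport motors, 9 of 10 rose for deiminated against input and 9 for non-deiminated against input, with medians of 1.72 and 1.69. Over all single genes 29.5% and 29.2% were called higher. For deiminated against input, 8 were called higher after quantile normalisation, 10 after median centring, 4 under cyclic loess and 0 under hybridisation control scaling. Of all tested probe sets, 36.8%, 44.8%, 22.7% and 0% were called higher in these settings. Subtracting the control level from log2 values gave 4, against 21.8% of all. Kif5a, a neuronal kinesin heavy chain that carries neurofilaments along axons, read 7507 and 7956 with the deiminated protein, 4357 and 7082 with the non-deiminated protein and 234 on input. Its log2 rise for deiminated against input was 5.02 ± 0.46 (limma adjusted p = 5.37e-06). The kinesin light chain gene Klc1 rose by 3.70, Kif5c by 2.92 and Kif5b by 2.61. Plec, the linker plectin, rose by 1.18 (adjusted p = 0.018) but had -0.09 under cyclic loess, and Dst, the neuronal plakin, had 0.84 and did not pass. The 1 other kept probe set of Kif5a and the 1 of Klc1 had the opposite sign, whereas those of Kif5b and Kif5c shared the sign in 4 of 4 and 1 of 1 cases.

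**Figure D5:**
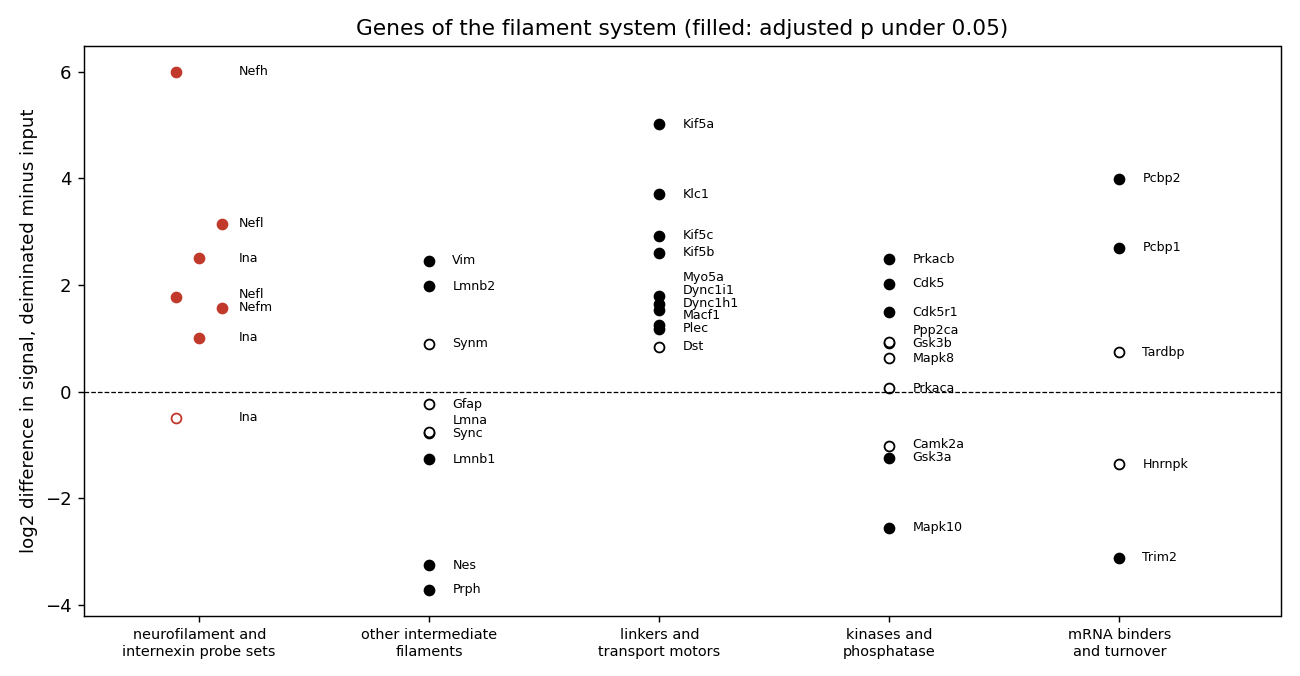
log2 difference, deiminated minus input, of the 7 neurofilament and internexin probe sets (red) and of the kept genes of 4 related lists (black), with filled points for an adjusted p under 0.05. Kif5a at 5.02 stands near Nefh, while Prph at -3.72 lies at the opposite end.

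Enzymes that act on neurofilament tails and heads were called at about the shares of all single genes for deiminated against input. Of 10, 3 were higher, 2 lower and 5 did not pass, against 29.5% higher and 22.4% lower over all. Their median was 0.77. Cdk5, the proline-directed kinase of the tail repeats, rose by 2.02 ± 0.49 (limma adjusted p = 0.00524). Its activator gene Cdk5r1 rose by 1.49 (adjusted p = 0.0061) but did not pass after quantile normalisation or cyclic loess, at 0.76 and 0.08. Prkacb, a catalytic subunit of protein kinase A, rose by 2.48 (adjusted p = 0.000261). Mapk10, a neuronal Jun kinase, had -2.55 (adjusted p = 0.0104) and read 69394 on input, and its value was 2.89 under hybridisation control scaling, at -1.42 from the median of all. Of 6 other kept probe sets of these 4 genes, 1 shared the direction of the one used, so the sign depends on the probe set read. For non-deiminated against input 3 were higher, 1 lower and 6 did not pass, against 29.2% higher and 21.3% lower over all single genes.

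Of genes whose products bind neurofilament mRNA or turn over the protein, 5 were measured. Pcbp2 rose by 3.99 ± 0.39 (limma adjusted p = 9.08e-06) and Pcbp1 by 2.70 ± 0.38 (limma adjusted p = 0.000154); both encode KH-domain proteins that bind C-rich RNA. Tardbp, which encodes the RNA-binding protein TDP-43, had 0.74 (adjusted p = 0.134), with -0.54 under cyclic loess. Hnrnpk had -1.36 (adjusted p = 0.135). Trim2, a ubiquitin ligase for the light subunit, had -3.12 (adjusted p = 0.00521) on a probe set that read 87367 on input, and 2.32 under hybridisation control scaling, at -1.98 from the median of all. Of the other kept probe sets of Trim2 only 1 of 5 shared its direction, against 3 of 4 for Tardbp and 1 of 2 for Pcbp2. Between the bound groups, limma called 0 genes of any of these lists.

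Markers of brain cells were read beside the neurofilament genes. Of 10 neuron markers, 9 rose in each comparison with input, and their summed signal was 19892 to 25936 on the bound arrays and 5367 on input. Tubb3, the neuronal tubulin, rose by 5.25 and Snap25, of the vesicle fusion machinery, by 3.22 for deiminated against input, while Rbfox3, which marks neuronal nuclei, rose by 2.64 and the neuronal enolase gene Eno2 by 2.11. For deiminated against input, 3 of the 10 neuron markers were called higher under cyclic loess, against 22.7% of all tested probe sets. Hybridisation control scaling gave 0, against 0% of all. With the control level subtracted from log2 values 6 were called higher, against 21.8% of all. Of 7 astrocyte markers 4 rose, which were S100b (2.91), Slc1a2 (3.17), Gja1 (3.21) and Aqp4 (1.56), with a summed signal of 18331 to 25317 on the bound arrays and 6426 on input. Under cyclic loess 3 of the astrocyte markers were called higher and 1 lower, where 56.9% of all calls were higher. Hybridisation control scaling gave 0. Of 5 measured oligodendrocyte markers 3 rose, which were Mag (4.05), Mobp (3.33) and Mog (2.64), while Mbp had -0.56 and Cnp -0.40. Under cyclic loess 3 stayed called higher, and Mbp and Cnp were called lower, at -2.20 and -2.07. Hybridisation control scaling again gave 0. Of 7 other kept probe sets of Mbp, 1 shared its negative sign. The summed oligodendrocyte signal was 23221 to 68236 on the bound arrays and 48663 on input. Of 6 microglia markers 2 were higher and 0 lower for deiminated against input, with a median of 0.18. For non-deiminated against input 2 were higher and 1 lower, which was Aif1 at -1.93 (limma adjusted p = 0.0248), with a median of -0.21. Their summed signal was 4613 to 5843 on the bound arrays against 3607. For deiminated against input Csf1r was at 1.33 (-0.22 under cyclic loess), C1qa at 1.80, Aif1 at -0.92 and C1qb at -0.32. Endothelial markers had 0 of 4 higher and 2 lower for deiminated against input, which were Kdr (-2.10) and Tek (-3.00), both positive under hybridisation control scaling but at -1.25 and -2.69 from the median of all. Cldn5 had 0.37 and Flt1 0.39. Tek read 35.5 and 1.72 with the deiminated protein, 47.5 and 57.1 with the non-deiminated protein and 118 on input, so its value rests largely on 1 array. For non-deiminated against input Kdr alone was lower, and Tek had -1.12 (limma adjusted p = 0.382). The summed endothelial signal was 842 to 1083 on the bound arrays and 1175 on input. Other kept probe sets of the named markers shared the direction in 3 of 3 cases for neurons, 7 of 10 for astrocytes, 3 of 9 for oligodendrocytes, 1 of 4 for microglia and 1 of 1 for endothelium. Some markers read below the filter's level, such as Tubb3 at 8.56 and Mag at 17.9 on input. The part of these shifts in the neurofilament results was not tested, and in RNA of brain tissue the number of neurons and the RNA of each cannot be told apart, although no comparison here is between tissues.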

How the data were processed

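The deposited values are intensities of 45101 probe sets on 5 arrays, on a linear scale; per the submitters' processing notes the authors used MAS5, with no version given in them. Gene symbols came from the platform annotation. Values were taken to log2 after adding 4.18, the overall median of 41.8 over 10. Of 45037 probe sets that are not controls, those with a mean log2 signal at or above the 40th percentile (4.89) were kept, which left 27022. limma 3.58.1 in R 4.3.3 fitted the means of the 3 groups with lmFit and eBayes with a variance trend, with 2 residual and 10.91 prior degrees of freedom, so that input, with 1 array, borrows its spread from the bound arrays. p-values were adjusted over all kept probe sets (Benjamini-Hochberg, threshold 0.05). Precision is limited by how few arrays there are. The fit was tested on simulated data with known changes, with a noise model that was replaced after the first recovered none of them. With the second, the smallest changes simulated were not recovered in any comparison, nor the middle ones against input, so a probe set that was not called may still differ. Far fewer probe sets were changed in the simulation than were called against input in the data. The simulation therefore does not give the sensitivity of the comparisons with input. All probe sets of the 4 genes are named, and from each related list the 4 genes with the largest moderated t for deiminated against input, with Prph; Gfap, Lmnb2, Plec, Dst, Hnrnpk and Cnp were added after their values were seen. The members and lists were chosen with earlier results of these data known. Replicates are numbered in accession order, which pairs nothing. Alternatives covered the pseudocount (1.05 and 16.7), the filter (none, or the 60th percentile), the scaling, the variance model, array weights, a block for the name of the protein, a fit without input, and dropping bound arrays one at a time. A block for the control level, and scaling to the controls by subtraction as well as by division, were added after the data were seen. Some genes of the related lists are not reported here.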

Additional observations from a re-analysis of the deposited data

How the results depend on the processing

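For deiminated against input, all tested probe sets gave 13925 calls, 21261 with no filter, 0 with hybridisation control scaling and 9226 to 16695 on dropping bound arrays one at a time, the lowest without deiminated replicate 1. For non-deiminated against input, 13635 became 0 with hybridisation control scaling. Subtracting the control level from log2 values, the form run first, gave 5886 and 6050 calls and 4 members in each comparison; dividing the signals was adopted after those values were seen. The 6 members called became 0 in both comparisons with that scaling, where the typical standard error went from 0.59 to 2.69. They became 3 for non-deiminated against input under cyclic loess, where 22.3% of all tested probe sets were called higher. Cyclic loess turned Ina 1418178_at to -0.11 and -0.04 and Nefm, for non-deiminated against input, to -0.11. Ina 1448992_at turned to 1.00 and 1.12 with median centring and to 4.65 and 4.88 with hybridisation control scaling, or 4.95 and 5.17 with the subtraction. Centring and subtraction move all probe sets alike, so its distance from the median of all stayed at -0.28 and -0.11, whereas after division it was 0.34 and 0.50. For the changes under cyclic loess and division the cause was not tested. Between the bound groups no member was called in any setting run, and all probe sets gave 0 calls except 24 without non-deiminated replicate 1 and 2 without non-deiminated replicate 2, each of which leaves 1 array to stand for that group, so that dropping arrays gave 0 to 24. There Nefl 1454672_at turned to -0.06 with quantile normalisation, Ina 1418178_at to 0.02 and Ina 1448991_a_at to 0.04 with median centring. On dropping bound arrays one at a time, the difference ran from -0.45 to 0.08 for Nefl 1426255_at, -0.33 to 0.43 for Nefl 1454672_at, -0.07 to 0.75 for Nefm and -0.17 to 0.59 for Nefh. It ran from -0.19 to 0.08 for Ina 1418178_at, -0.16 to 0.08 for Ina 1448991_a_at and -0.38 to 0.00 for Ina 1448992_at. The labels give the groups no shared replicate numbers, but the titles name the protein REFP2 on 1 array of each bound group. A block for that name left 5 members called in each comparison with input, without Ina 1418178_at. With it, 22.7% of all tested probe sets were called higher for deiminated against input and 22.4% for non-deiminated. Between the bound groups that block gave 0 members called. A block for the control level also gave 0. Array weights, the pseudocounts and the stricter filter changed no call of a member. Signals near the pseudocount, such as Nefh on input, limit the size of a difference that can be measured.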
